A study of Zea mays with 11 samples.

Results

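The 3 sucrose synthase genes sh1 (GRMZM2G089713), sus1 (GRMZM2G152908) and sus2 (GRMZM2G318780) of maize were followed through kernel development, taken by their identifiers from a table of 34145 genes. All samples came from field plants of the inbred Mo17 that had been selfed on the same date, and tissue was taken by hand at midday. The 11 poly(A) RNA libraries held isolated endosperm at 8 stages between 7 and 25 days after pollination (DAP), the whole kernel at 3 DAP and at 5 DAP, and ear leaf at 13 DAP as the control tissue. No other genotype and no treatment entered the comparisons. Each stage had 1 library, so the spread between plants of a stage was not measured and neighbouring levels could not be set against it. Whole kernels also hold maternal tissue and the embryo.

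Sucrose synthase uses UDP to split sucrose, the sugar that arrives from the leaf, into UDP-glucose and fructose, in a reversible reaction. UDP-glucose can be passed on to ADP-glucose and starch or to cell walls, and fructose has to be phosphorylated by a fructokinase or a hexokinase before it is used. The gene sh1 (shrunken1) is named for the collapsed endosperm of its mutants and encodes the main sucrose synthase of maize endosperm. The genes sus1 and sus2 encode further isozymes.

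Values are FPKM, that is fragment counts divided by transcript length and by library size, which allows genes to be compared within a library. Library depth is unknown. The 9 DAP library stood apart from its neighbours in having 9853 genes listed at 0, against 6323 at 7 DAP and 6768 at 10 DAP, and at 25 DAP 11214 genes were listed at 0. The tissue labels were checked with marker genes. The summed FPKM of 5 starchy endosperm markers (fl2, zp27, o2, wx1 and pbf1) was between 51.5 and 13050 in the endosperm libraries, against 4.03 and 9.07 in the kernels and 0.36 in leaf. At 7 DAP that sum rested on zp27, with 47.0 FPKM. The markers fl2 and wx1 were lower in endosperm at 7 DAP (0.10 and 0.85 FPKM) and 9 DAP (0.09 and 1.27) than in the 5 DAP kernel (0.26 and 4.90). The 9 leaf markers other than ppdk1 (such as ssu1, Cab-m7, pep1 and me3) summed to between 0.81 and 2.36 FPKM in endosperm and 3.80 to 5.02 in kernels, against 2307 in leaf. The C4 enzyme gene ppdk1, which endosperm also uses, ran from 4.49 to 299.3 FPKM in endosperm, against 968.3 in leaf.

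The 3 genes did not follow a common course. In the youngest samples sus1 was the highest of the 3 genes, from 10 DAP on sh1 was, and in leaf sus2 and sh1 stood close together. The level of sh1 in endosperm spanned 392-fold between its lowest and its highest library, that of sus1 56.3-fold and that of sus2 24.4-fold.

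The sh1 transcript stood at 36.0 FPKM at 3 DAP and 24.0 at 5 DAP in whole kernels. In endosperm it stood at 5.43 FPKM at 7 DAP, 52.3 at 9, 261 at 10, 560.4 at 11, 2127 at 13, 1435 at 15, 1325 at 20 and 1952 at 25 DAP. Leaf had 15.7 FPKM. The 7 DAP endosperm was thus the lowest of all 11 libraries for sh1, below leaf and both kernels, and the 4 libraries from 13 DAP on were the highest, each at 62.3% or more of its maximum. Among all genes of its library sh1 ranked 8035th at 7 DAP, 996th at 9 DAP, 119th at 10 DAP, 32nd at 11 DAP and 12th at 13 DAP, and it was 20th at 25 DAP.

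The sus1 transcript stood at 50.5 FPKM at 3 DAP and 48.6 at 5 DAP in kernels. In endosperm it was at 14.6 FPKM at 7 DAP, 74.6 at 9, 172.1 at 10, 197.1 at 11, 22.1 at 13, 23.7 at 15, 6.24 at 20 and 3.50 at 25 DAP. Leaf had 3.57 FPKM. The libraries of 10 and 11 DAP were the highest, and those of 25 DAP endosperm and leaf were the lowest and within 0.07 FPKM of each other.

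The sus2 transcript was low in kernels, at 4.24 FPKM at 3 DAP and 2.13 at 5 DAP. In endosperm it was at 1.59 FPKM at 7 DAP, 5.92 at 9, 17.5 at 10, 13.9 at 11, 4.76 at 13, 5.75 at 15, 15.7 at 20 and 38.9 at 25 DAP. Leaf had 17.5 FPKM. Its endosperm series had an early high at 10 and 11 DAP, a low at 13 and 15 DAP and its highest value at 25 DAP, while leaf lay beside the 10 DAP endosperm.

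**Figure D1:**
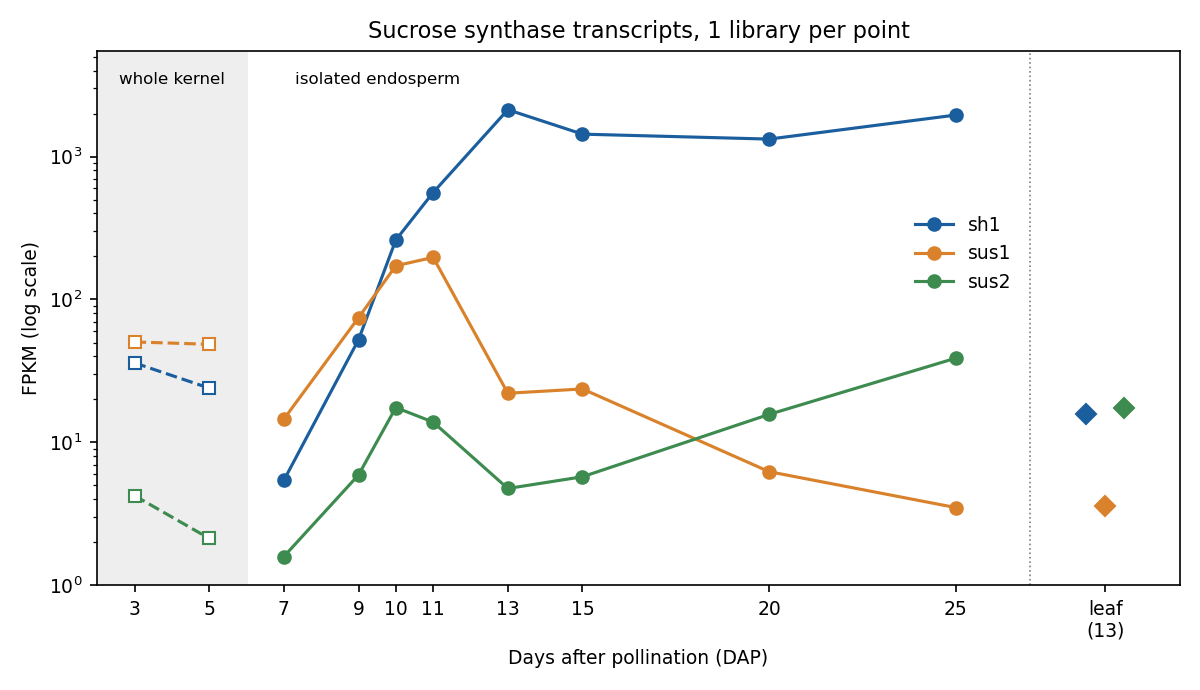
FPKM on a log axis of sh1, sus1 and sus2 against days after pollination, with 1 library per point: open squares, whole kernel; circles, isolated endosperm; diamonds, ear leaf. The line of sh1 crosses above that of sus1 between 9 and 10 DAP and stays at 1325 FPKM or more from 13 DAP, and the line of sus2 crosses above that of sus1 between 15 and 20 DAP.

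Within a library the ratio of these genes is free of any single factor by which libraries were scaled to each other. In kernels sus1 was above sh1 by 1.40-fold at 3 DAP and 2.03-fold at 5 DAP, and in endosperm by 2.68-fold at 7 DAP and 1.43-fold at 9 DAP. From 10 DAP sh1 was above sus1, by 1.52-fold at 10 DAP, 2.84-fold at 11, 96.4-fold at 13, 60.6-fold at 15, 212-fold at 20 and 558-fold at 25 DAP. Quantile normalization, which changes values within a library, kept the order of both genes at every stage. It gave lower log2 ratios in the kernels and from 13 DAP on: 5.79 against the deposited 6.59 at 13 DAP, 6.45 against 7.73 at 20 DAP, and 7.45 against 9.12 at 25 DAP. From 7 to 11 DAP and in leaf it gave higher ones, such as 1.89 against 1.51 at 11 DAP. The largest shift between neighbouring stages was from 11 to 13 DAP, when sh1 was higher and sus1 lower in the later library. In leaf sh1 was 4.40-fold above sus1. These ratios come from single libraries and were not tested.

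As shares of the summed FPKM of the 3 genes, sh1 held 39.7% at 3 DAP and 32.1% at 5 DAP in kernels, then 25.2% at 7 DAP, 39.4% at 9, 57.9% at 10, 72.7% at 11 and between 97.9% and 98.8% from 13 to 25 DAP in endosperm. The share of sus1 was 55.6% at 3 DAP, 65.0% at 5 DAP and 67.5% at 7 DAP, and it was 25.5% at 11 DAP and 1.02% at 13 DAP. The share of sus2 stayed between 0.221% and 7.37% in kernels and endosperm, and in leaf it was 47.6%, beside 42.7% for sh1 and 9.71% for sus1. At 25 DAP sus2 was 11.1-fold above sus1 and at 20 DAP 2.52-fold, whereas sus1 was between 4.12-fold and 22.8-fold above sus2 in every kernel and endosperm library up to 15 DAP. The summed FPKM of the 3 genes was lowest at 7 DAP, with 21.6 FPKM or 0.00737% of that library, and highest at 13 DAP, with 2154 FPKM or 0.729%.

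**Figure D2:**
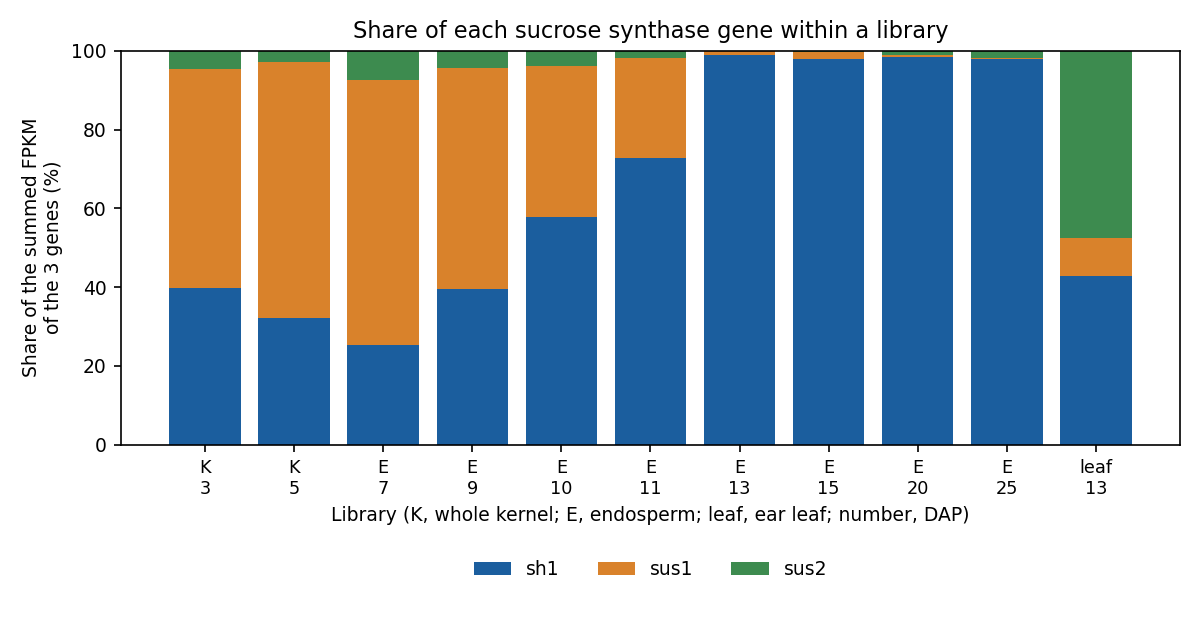
Stacked bars give the share of sh1, sus1 and sus2 in their summed FPKM (percent) in each of the 11 libraries, with 1 bar per library. The sh1 share is 25.2% in the 7 DAP endosperm and at least 97.9% from 13 DAP on, and sus2 has its largest share, 47.6%, in leaf.

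The change over the 8 endosperm stages was tested for every gene with limma on log2(FPKM + 1), as a slope per day. Genes needed a mean of 1 FPKM or more in endosperm to enter, which all 3 had, with means of 964.9 FPKM for sh1, 64.2 for sus1 and 13.0 for sus2. By this slope sh1 and sus2 rose and sus1 fell. The slope of sh1 was 0.357 ± 0.112 per day (SE; limma, Benjamini-Hochberg adjusted p = 0.027), and 0.264% of the tested genes had a steeper rise. The slope of sus2 was 0.146 ± 0.048 (adjusted p = 0.032) and that of sus1 was -0.235 ± 0.078 (adjusted p = 0.034), with 2.26% of genes above the first and 1.53% below the second. Calls were common in this test: of 15149 genes, 47.7% were called, 10.3% as rising and 37.4% as falling. The rising genes were 21.6% of the calls with the deposited scaling, 50.2% with quantile normalization and 48.0% with upper quartile scaling. The median slope of all genes was -0.034 per day, or -0.61 log2 units over the 18 days, against 0.02 and -0.04 with those scalings. Relative to the median of the deposited values the slopes were 0.391 for sh1, 0.180 for sus2 and -0.201 for sus1.

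A straight line described these genes poorly. The residual SD around the line was 2.20 log2 units for sh1, 1.54 for sus1 and 0.93 for sus2, against a median of 0.33 over all tested genes. A test of day and day squared together was passed by sh1 (adjusted p = 0.0012) and narrowly by sus1 (adjusted p = 0.048), and not by sus2 (adjusted p = 0.074). It called 54.4% of all genes. Since it takes both terms together, a pass does not by itself show a curve. With day squared the residual SD was 1.22 for sh1, 1.57 for sus1 and 1.01 for sus2, so it was smaller than around the line for sh1 alone. The calls for sus1 depended on single libraries. Its slope was not called without 9 DAP (adjusted p = 0.053), 10 DAP (0.06), 20 DAP (0.094) or 25 DAP (0.18), and its call with day squared was lost on leaving out any 1 library other than 7 DAP, with adjusted p between 0.052 and 0.1. The slope of sus1 was -0.222 without 25 DAP, and without 20 and 25 DAP together it was -0.060 (adjusted p = 0.84), the remaining series having 23.7 FPKM at 15 DAP and 14.6 at 7 DAP at its ends. The straight-line call of sus2 was likewise lost without 25 DAP (adjusted p = 0.25), 20 DAP (0.062) or 7 DAP (0.11), and that of sh1 without 7 DAP (0.071) or 20 DAP (0.057). With quantile normalization the straight-line calls of sh1 (adjusted p = 0.059) and sus1 (0.06) were lost too, and without the filter on low genes those of all 3 were (0.092 for sh1, 0.1 for sus1 and 0.096 for sus2). The call of sh1 in the test with day squared was kept on leaving out any single library, with adjusted p between 0.0018 and 0.014.

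The times at which each gene moved were read from neighbouring libraries, as the log2 ratio of (FPKM + 1), with at least 4-fold as the mark. With 1 library on each side there is no test, and the share of all genes past the mark the same way is given instead. From 3 to 5 DAP in kernels none of the 3 genes passed the mark, with log2 ratios of -0.57 for sh1, -0.05 for sus1 and -0.74 for sus2, while 0.36% of genes were at least 4-fold higher and 0.162% at least 4-fold lower. The 7 DAP endosperm was below the 5 DAP kernel for sh1 and sus1, with log2 ratios of -1.96 and -1.67, and the -0.27 of sus2 turned to 0.07 with upper quartile scaling. None passed the mark, which 8.25% of genes passed downwards and 2.64% upwards, although sh1 reached -2.12 with a pseudocount of 0.1. Stage and tissue cannot be told apart in that comparison.

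Between 7 and 9 DAP all 3 genes were higher in the later endosperm, and sh1 and sus1 passed the mark. The log2 ratio was 3.05 for sh1, 2.28 for sus1 and 1.42 for sus2, and only 0.0677% of genes, 11 of 16245, were at least 4-fold higher and 2.17% at least 4-fold lower. Larger ratios were found in 0.00616% of genes for sh1, 0.0431% for sus1 and 0.203% for sus2. Because the 9 DAP library stood apart, the 10 DAP library was also set against 7 DAP, a comparison added after the data were seen. All 3 genes then passed the mark, with log2 ratios of 5.35 for sh1, 3.48 for sus1 and 2.84 for sus2, as did 1.01% of genes upwards and 0.699% downwards. Between 9 and 10 DAP the log2 ratio was 2.30 for sh1, 1.19 for sus1 and 1.42 for sus2. Only sh1 passed the mark, as did 2.06% of genes upwards and 0.0372% downwards.

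From 10 to 11 DAP the log2 ratio was 1.10 for sh1, 0.19 for sus1 and -0.32 for sus2, where 0.234% of genes were at least 4-fold higher and 0.327% at least 4-fold lower. Between 11 and 13 DAP the genes parted. The sus1 transcript was at 22.1 FPKM at 13 DAP, against 197.1 at 11 DAP, a log2 ratio of -3.10 that 0.0957% of genes undercut, while 0.849% of genes were at least 4-fold lower and 0.421% at least 4-fold higher. The sh1 transcript was at 2127 FPKM at 13 DAP, against 560.4 at 11 DAP, a log2 ratio of 1.92 that 0.466% of genes exceeded; it was 2.22 with upper quartile scaling and 1.19 with quantile normalization. The sus2 transcript was lower at 13 DAP, with a log2 ratio of -1.37.

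After 13 DAP the log2 ratio of sh1 was -0.57 at 15 over 13 DAP, which 3.22% of genes undercut. For sh1 it was -0.11 at 20 over 15 DAP (0.17 with upper quartile scaling) and 0.56 at 25 over 20 DAP. The sus1 transcript showed a second drop between 15 and 20 DAP, with a log2 ratio of -1.77 that 1.14% of genes undercut, while sus2 was higher by 1.31 from 15 to 20 DAP and by 1.25 from 20 to 25 DAP. None of the 3 genes passed the mark in these 3 steps. Of all genes 0.0749% did so upwards and 0.0136% downwards at 15 over 13 DAP, 0.486% and 0.669% at 20 over 15 DAP, and 0.205% and 2.13% at 25 over 20 DAP. In all, 4 of the 27 steps between neighbouring libraries passed it. Levels per cell and numbers of cells of a type cannot be told apart in such bulk samples.

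**Figure D3:**
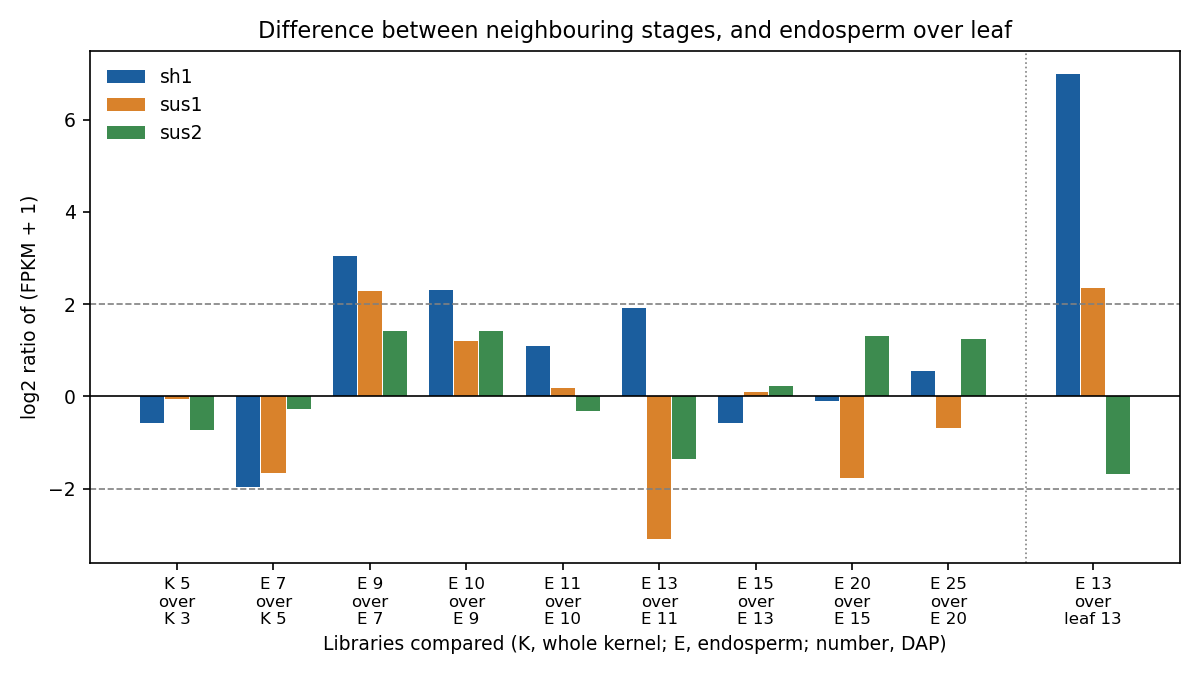
Bars give the log2 ratio of (FPKM + 1) of sh1, sus1 and sus2 between neighbouring stages, later over earlier, and at the right between 13 DAP endosperm and 13 DAP leaf; the dashed lines mark 4-fold. All 3 genes lie above 0 at 9 over 7 DAP and at 10 over 9 DAP, and at 13 over 11 DAP sh1 lies at 1.92 and sus1 at -3.10.

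Markers of other kernel parts varied over the same stages. Only 3 of 6 embryo markers were found by symbol (ole1, glb1 and glb2), and their summed FPKM was 23.2 at 7 DAP, 31.4 at 9, 134.6 at 10, 139.5 at 11, 61.7 at 13, 41.5 at 15, 47.5 at 20 and 116.7 at 25 DAP. It was thus higher at 10, 11 and 25 DAP than at 13 and 15 DAP, as was sus2. At 20 DAP they differed: the sum was below its 13 DAP value, while sus2 was at 15.7 FPKM, against 4.76 at 13 DAP. No single marker was higher at all of 10, 11 and 25 DAP than at 13 and 15 DAP. The marker ole1 was highest at 10 DAP with 121.5 FPKM and glb1 at 11 DAP. The marker glb2 was highest at 25 DAP with 57.2 FPKM, being listed at 0 at 7 and 9 DAP. The 4 aleurone markers found of 5 (nkd1, nkd2, vpp1 and cr4) summed to 97.8 FPKM at 7 DAP, 101.5 at 9, 166.6 at 10, 175.5 at 11, 112.6 at 13, 150.1 at 15, 63.1 at 20 and 16.3 at 25 DAP. This sum and sus1 were both highest at 11 DAP. At 13 and 15 DAP sus1 was at 22.1 and 23.7 FPKM, and the sum was above its 9 DAP value. The 4 markers differed in course, and nkd1, highest at 15 DAP with 108.2 FPKM, made up most of the sum there. From 11 to 13 DAP all 4 were lower in the later library. In that step nkd1 went from 102.0 to 80.7 FPKM and vpp1 from 36.4 to 7.29. The marker nkd2 went from 35.5 to 23.3 FPKM and cr4 from 1.65 to 1.25. The 7 transfer cell markers summed to 54.9 FPKM at 25 DAP and 1064 at 7 DAP, and the 4 markers of the embryo-surrounding region to 0.40 FPKM at 25 DAP and 296.6 at 7 DAP. Most of the transfer cell sum at 7 DAP came from betl10 (521.9 FPKM) and betl2 (316.5). The transfer cell marker mrp1 differed, with at most 0.15 FPKM in endosperm, against 0.47 in the 3 DAP kernel and 0.64 in leaf. At the stages of 13 DAP and later sh1 lay between 1325 and 2127 FPKM. The transfer cell sum was 335.3 FPKM at 13 DAP, 154.7 at 15, 128.9 at 20 and 54.9 at 25 DAP. The part of these cell types in the levels of sh1, sus1 and sus2 was not tested.

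At 13 DAP endosperm was set against ear leaf of the same day. The sh1 transcript was higher in endosperm, at 2127 FPKM, against 15.7 in leaf, a log2 ratio of 6.99 that 0.279% of genes exceeded. The sus1 transcript was at 22.1 FPKM in endosperm, against 3.57 in leaf, a log2 ratio of 2.34. The sus2 transcript was at 4.76 FPKM in endosperm, against 17.5 in leaf, a log2 ratio of -1.68, which did not reach the 4-fold mark. At least 4-fold higher levels in endosperm were found for 6.62% of genes, and at least 4-fold lower levels for 18.3%. Since sus1 was at 3.50 FPKM at 25 DAP and 197.1 at 11 DAP, its difference from the 13 DAP leaf varied with the endosperm stage, and the 25 DAP endosperm was within 0.07 FPKM of that leaf.

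The table lists 5 further identifiers matched to Arabidopsis sucrose synthases, and all were low. GRMZM2G311182, matched to SUS3 as sus2 is, stood between 0.27 and 7.19 FPKM in endosperm with its highest value at 10 DAP, against 1.94 FPKM in leaf. GRMZM2G011240, also matched to SUS3, was at 0.01 FPKM at 7 DAP, 3.33 at 10, 3.69 at 11 and 0.03 at 25 DAP, against 0.06 in leaf. Neither passed the straight-line test by limma (adjusted p = 1.0 and 0.48), and 0 of these 2 had an unadjusted p under 0.05. The matches to SUS6 were GRMZM2G060659, at 3.01 FPKM in the 3 DAP kernel and, in endosperm, at 0.22 at 7 DAP and 3.07 at 25 DAP, and GRMZM2G410704 and GRMZM2G045171, which did not exceed 0.55 FPKM in any library. These 3 had endosperm means under 1 FPKM and were not tested. Both sh1 and sus1 were matched to the same Arabidopsis gene, SUS4. Reads that fit both could have been split between them, so their levels are uncertain to that extent. How such reads were counted is not known, and their part in the levels was not tested.

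The other genes of sucrose use were taken from 8 lists, which include these 5 identifiers. Of 79 genes on the lists 39 were tested, of which 8 rose, 10 fell and 21 were not called, or 20.5% rising and 25.6% falling, beside 10.3% and 37.4% of all genes. The median slope of the 39 was -0.032 per day, beside -0.034 for all tested genes.

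Among the genes of ADP-glucose supply and use, sh2, bt2 and wx1 rose as sh1 did. Of 7 tested, 3 rose and 4 were not called, beside 10.3% rising and 37.4% falling among all tested genes. All 7 passed the test with day squared, as did 54.4% of all tested genes. The large subunit gene sh2 of ADP-glucose pyrophosphorylase, which makes the glucosyl donor of starch, was at 19.0 FPKM at 7 DAP, 148.3 at 9, 511.4 at 10, 870.2 at 11, 2270 at 13 and 2540 at 25 DAP. Its small subunit gene bt2 was at 0.78 FPKM at 7 DAP, 2.44 at 9, 149.3 at 10, 430.0 at 11, 2406 at 13 and 1583 at 25 DAP. Between 7 and 9 DAP sh1 and sh2 were thus more than 7-fold higher in the later library, whereas bt2 and the starch synthase gene wx1, at 1.27 FPKM at 9 DAP and 0.85 at 7 DAP, stayed under 3 FPKM. All 3 of sh2, bt2 and wx1 were under 6 FPKM in kernels, where sh1 had 36.0 and 24.0 FPKM.

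The genes for enzymes that take up the products of sucrose synthase did not move together. Of 2 tested matches to UDP-glucose pyrophosphorylase, which turns UDP-glucose into glucose 1-phosphate, neither was called: GRMZM2G032003 stood at 173.6 FPKM at 7 DAP, 281.2 at 13 and 123.3 at 25 DAP (adjusted p = 0.13), and AC233910.1_FG005 at 38.1, 66.5 and 29.2 FPKM (adjusted p = 0.12). By limma 0 of these 2 had an unadjusted p under 0.05. Another match, UGP3 (AC197705.4_FG011), had 1.32 FPKM or less in endosperm, against 15.0 in leaf. The fructokinase gene frk2 fell (slope -0.37, adjusted p = 0.00084), and frk1 was not called (adjusted p = 0.062). The frk2 transcript was at 123 FPKM at 3 DAP and 126.2 at 5 DAP in kernels, and in endosperm at 84.9 FPKM at 7 DAP, 44.8 at 9, 77.1 at 10, 75.6 at 11, 8.09 at 13, 6.49 at 15, 1.50 at 20 and 0.40 at 25 DAP.

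Of 5 tested hexokinase genes 1 rose and 4 fell, beside 10.3% and 37.4% of all tested genes. The match GRMZM2G104081 rose, at 3.52 FPKM at 7 DAP, 14.2 at 11, 56.9 at 13 and 168.8 at 25 DAP (slope 0.297, adjusted p = 0.00094). The match GRMZM5G856653 fell, at 17.3 FPKM at 7 DAP, 43.3 at 10, 31.5 at 11, 3.54 at 13 and 0.46 at 25 DAP (adjusted p = 0.003). GRMZM2G058745 fell as well, at 2.52 FPKM at 25 DAP and 12.0 at 7 DAP, against 14.6 in leaf (adjusted p = 0.02). Between 11 and 13 DAP sus1 was lower by 3.10 on the log2 scale. In that step 39 list genes had at least 1 FPKM in either library, which are not all the same as the 39 tested for a slope. Of these 2 were at least 4-fold lower, beside 0.849% of all genes: frk2, with a log2 ratio of -3.07, and GRMZM5G856653, with -2.84. In the same step 2 of the 39 were at least 4-fold higher, beside 0.421% of all genes: bt2 with 2.48 and wx1 with 2.24. The hexokinase match GRMZM2G104081 was higher by 1.93.

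**Figure D4:**
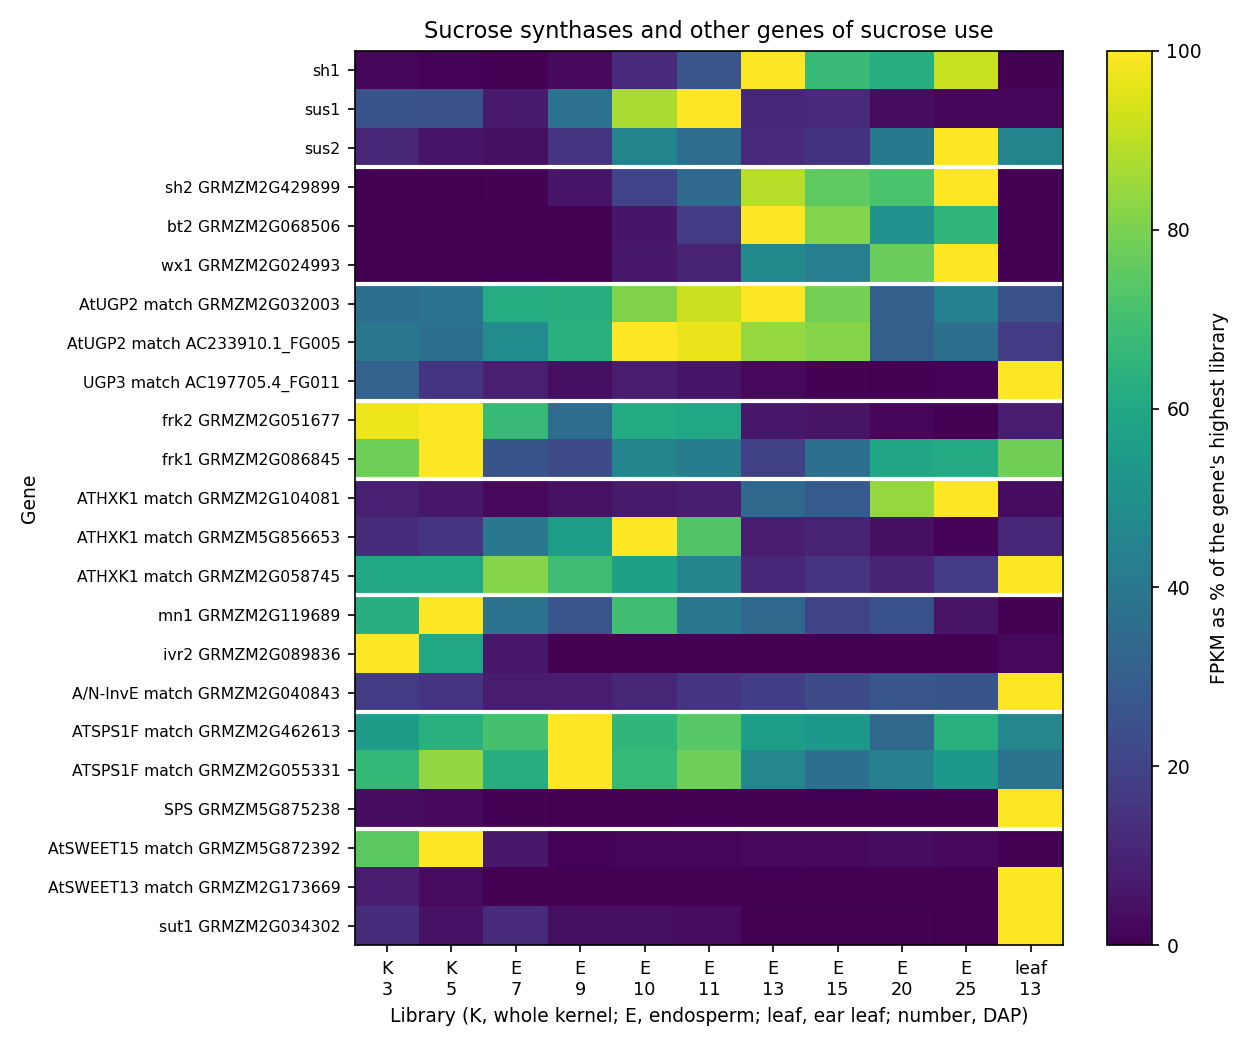
FPKM of each gene as a percentage of its own highest library (colour), for the 3 sucrose synthase genes and the 2 or 3 highest genes of each further list, in blocks split by white lines. The list of other sucrose synthases is not shown. The blocks run from sucrose synthases through ADP-glucose genes, UDP-glucose pyrophosphorylases, fructokinases, hexokinases, invertases and sucrose phosphate synthases to transporters; sh1 and bt2 are highest at 13 DAP, sus1 at 11 DAP and sus2 at 25 DAP.

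Invertases, which split sucrose by hydrolysis and are the other way into its use, were lower than sh1 in every endosperm library from 9 DAP. Of 13 invertase genes 6 were tested, 2 rising, 2 falling and 2 not called, beside 10.3% rising and 37.4% falling among all tested genes. The cell wall invertase gene mn1, needed for normal kernel size, fell, at 1.78 FPKM at 25 DAP and 13.3 at 7 DAP (adjusted p = 0.011), and at 7 DAP it was above sh1, which had 5.43 FPKM. The vacuolar invertase gene ivr2 was at 42.8 FPKM at 3 DAP and 25.7 at 5 DAP in kernels, at 2.75 in the 7 DAP endosperm and at most 0.15 later. The neutral invertase match GRMZM2G040843 rose, at 6.65 FPKM at 25 DAP and 2.03 at 7 DAP, against 25.4 in leaf (adjusted p = 0.0061).

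Of 7 sucrose phosphate synthase genes, whose enzymes make sucrose, 5 were tested. By limma 0 of 5 had a called slope, 0 of 5 had a slope with an unadjusted p under 0.05, and 1 of 5 passed the test with day squared, GRMZM2G471083 (adjusted p = 0.049), named after its value was seen. Among all tested genes 47.7% had a called slope and 54.4% passed the test with day squared. GRMZM2G462613 stood between 9.83 and 29.3 FPKM and GRMZM2G055331 between 7.14 and 19.6 FPKM in endosperm, while the gene SPS (GRMZM5G875238) had at most 0.32 FPKM there, against 51.0 in leaf. Of 31 sucrose transporter and SWEET genes, which carry sugar across membranes, 10 were tested, 2 rising, 3 falling and 5 not called. Among all tested genes 10.3% rose and 37.4% fell. The SWEET15 match GRMZM5G872392 was at 12.5 FPKM in the 7 DAP endosperm, against 136.8 at 3 DAP and 183.2 at 5 DAP in kernels. The sucrose transporter gene sut1 fell, at 0.28 FPKM at 25 DAP and 10.3 at 7 DAP (adjusted p = 0.01), against 86.5 in leaf. The SWEET13 match GRMZM2G173669 had 217.3 FPKM in leaf and at most 0.25 in endosperm. Leaf, the tissue with 15.7 FPKM of sh1, thus had the highest levels of SPS, sut1 and the SWEET13 match among all 11 libraries.

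The genes whose course was most like each member were ranked by Pearson's r of log2(FPKM + 1) over the 11 libraries, among genes with at least 10 FPKM in 1 library or more. The coefficients are a description: all genes share the libraries, and the samples are ordered stages. For sh1 the 5 highest were the match to the kinase AKIN10 (GRMZM2G077278, r = 0.988), bt2 (0.981), the match to ARF3 (GRMZM2G030710, 0.980), the match to an arginase (GRMZM2G174671, 0.975) and the starch synthase gene ss1 (0.972). The spans differed: the AKIN10 match was at 71.5 FPKM at 25 DAP and 12.8 at 7 DAP in endosperm, beside 1952 at 25 DAP and 5.43 at 7 DAP for sh1. For sus1 the 5 highest were matches to the proteasome subunit RPT1A (GRMZM2G110185, 0.946), CCT2 (GRMZM2G132898, 0.928), the gene cef1 (0.927), the proteasome subunit PBE1 (GRMZM2G102596, 0.926) and FHIT (GRMZM2G165815, 0.922). The RPT1A match was at 56.6 FPKM at 13 DAP and 98.9 at 11 DAP, beside 22.1 and 197.1 FPKM for sus1. For sus2 the named genes were matches to BUL1 (GRMZM5G850019, 0.915), the serpin gene Serpin-Z1 (0.880), a lysyl-tRNA synthetase (GRMZM2G118062, 0.806), FBL17 (GRMZM2G141332, 0.789) and CAF1 (GRMZM2G089222, 0.787), with the unnamed GRMZM2G077222 (0.831) and GRMZM2G079257 (0.827) between them.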

How the data were processed

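The series holds poly(A) RNA-seq of 11 samples. The authors deposited 1 table of FPKM values, rounded to 2 decimals, for 34145 genes, with the matching Arabidopsis gene beside many of them. The submitters' processing notes name cutadapt, TopHat2 and edgeR without versions or roles; the build, annotation and counter used were not given in the sources used here. Column sums ranged from 273651 to 300271 FPKM. No whole-read steps were found among the low values, so depth is unknown and no counting interval is given. No per-sample column was left unused.

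Gene symbols came from RefSeq's gene table for Zm-B73-REFERENCE-NAM-5.0, which served for naming alone; 18367 identifiers matched (53.8%). A name given as a match is that of the Arabidopsis gene in the deposited table. Analyses used log2(FPKM + 1), which shrinks fold changes of low genes. Slopes over the 8 endosperm libraries were fitted with limma 3.58.1 in R 4.3.3 (mean-variance trend, two-sided) to the 15149 genes that averaged 1 FPKM or more, with Benjamini-Hochberg adjustment over these and a threshold of 0.05; 6 residual degrees of freedom remained, or 5 with day squared. Stages are not replicates: the p-values take departures from the fitted course as error. The fit was also run on simulated straight-line courses with independent errors. Real courses over stages need not have these, so that run does not show how far the p-values hold here. Plots used matplotlib 3.10.9.

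The 3 genes and the lists were chosen with earlier results of these data known. Lists were matched by symbol or Arabidopsis name. SUS matches were found by the Arabidopsis symbol, phosphofructokinases, fructokinase-like proteins, inhibitors and proteins with unrelated names containing "sweet" were left out, and 3 homonyms of marker symbols were dropped after their values were seen. From each list the 3 genes with the highest mean over the 11 libraries are named, and all sucrose synthases. Steps count genes with at least 1 FPKM in either library. The alternatives tried were pseudocounts of 0.1 and 5, no filter or a mean of 5 FPKM, quantile or upper quartile scaling, log2 of the day, and libraries left out.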

Additional observations from a re-analysis of the deposited data

How the results depend on the processing

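No slope of sh1, sus1 or sus2 changed sign under any setting run. No paired analysis was possible because each stage has 1 library and the stages share only the replicate number 1. The adjusted p of sh1's slope was 0.092 without the filter on low genes and 0.059 with quantile normalization, and between 0.017 and 0.071 on leaving out 1 library. For sus1's slope it was 0.053 with a pseudocount of 5, 0.1 without the filter, 0.06 with quantile and with upper quartile scaling, 0.066 on log2 of the day, 0.24 without 9 and 25 DAP, 0.84 without 20 and 25 DAP, and between 0.0049 and 0.18 on leaving out 1 library. For sus1 with day squared it was 0.085, 0.18, 0.069 and 0.07 under the first 4 of these settings, 0.11 without either pair of libraries, and between 0.0037 and 0.1 on leaving out 1. For sus2's slope it was 0.096 without the filter, 0.29 without 9 and 25 DAP, 0.62 without 20 and 25 DAP, and between 0.013 and 0.25 on leaving out 1. With day squared sus2 passed with quantile (0.029) and upper quartile scaling (0.025), and its adjusted p lay between 0.025 and 0.41 on leaving out 1. The call of sh1 with day squared held in all settings run. Both pairs of libraries were chosen with earlier results known.

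Over all genes, rising calls numbered 1561, against 973 among genes averaging 5 FPKM or more, 3189 with quantile and 3143 with upper quartile scaling. Falling calls numbered 5671, against 3139, 3160 and 3409 under those settings and 3602 without 20 and 25 DAP. Calls with day squared numbered 8239, against 4738 with a mean of at least 5 FPKM and 2538 without 20 and 25 DAP. With a mean of at least 5 FPKM 5 list genes rose and 4 fell, beside 973 and 3139 of all 7932 genes tested. No set test was run on these counts. The log2 ratio of sh1 over sus1 with quantile normalization was 5.79 at 13 DAP, 6.45 at 20 DAP and 7.45 at 25 DAP. Endosperm over leaf at 13 DAP became 1.66 for sus1 with a pseudocount of 5, and 7.65 for sh1 and -1.07 for sus2 with upper quartile scaling. The number of member steps past 4-fold was 4, and 5 with a pseudocount of 0.1 or upper quartile scaling. The causes were not tested. Unknown depth leaves the counting error of low values, such as sus2 at 1.59 FPKM at 7 DAP, without an estimate.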
